A study of Mus musculus with 18 samples.

Results

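Glycolysis and the cellular answer to low oxygen were followed through 37 genes in mouse colon organoids, chosen by gene name from a table of 56748 genes. The genes cover glucose uptake, the glycolytic enzymes and their regulators, the lactate and pyruvate switch, the hypoxia-inducible factors with their oxygen sensors, and a set of hypoxia response targets. Where a name had 2 entries, which was the case for Aldoa, the entry with the higher summed level was used (14751 against 11.4 FPKM over all libraries). FPKM is the number of sequenced fragments of a gene, divided by its length and by a measure of library size. A minimum of 1 FPKM in 3 or more libraries was required for testing, which 35 of the 37 genes met.

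Glycolysis splits glucose into pyruvate in the cytosol, and the committed step is phosphofructokinase, whose activity is tuned by the PFKFB enzymes. Lactate dehydrogenase turns pyruvate into lactate, while the pyruvate dehydrogenase kinases hold pyruvate back from the mitochondria. The alpha subunits of the hypoxia-inducible factors, encoded by Hif1a and Epas1, are hydroxylated by the prolyl hydroxylases Egln1 and Egln3 when oxygen is present and are then degraded, so that much of their control acts on protein and is not seen in RNA. Stable factor binds a short core motif and raises glycolytic and other target genes, and in the gut the epithelium at the lumen normally lives at low oxygen.

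The organoids are epithelial cultures derived from the proximal, mid or distal mouse colon. Starting 3 days after passaging they were kept either in ENR with Wnt3a CM, the control in which they proliferate, or in a differentiation medium of unstated composition. The 18 libraries form 6 groups of 3, namely proximal, mid and distal organoids in each medium, and no genetic change or other agent is named for any group. Strain, age and the number of animals are not given, nor whether replicate numbers stand for separate animals, so the p-values measure only the spread between these samples, which may be technical.

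Recovered depth was 12827751 to 19938198 reads per library, and 10824 to 11415 genes reached an FPKM of 1. The summed FPKM of 7 epithelial marker genes was 2230 to 4877 in control and 5497 to 7392 in differentiation libraries. Marker sums of other cell types stayed low in all libraries, at most 0.684 for endothelium, 0.176 for fibroblasts, 3.52 for immune cells and 0.335 for muscle and nerve (5 genes each), with the fibroblast genes Col1a2 and Lum at 0 reads throughout. Along the first principal component, which held 63.5% of the variance, proximal differentiation replicate 1 lay at 5.80 and the other proximal differentiation libraries at 44.1 and 37.9. That library also had a proliferation marker sum of 117 FPKM against 43.9 and 44.6 in its group, and a colonocyte marker sum of 13955 against 24357 and 24570. Proximal control replicate 1 had a proliferation marker sum of 160 against 84.1 and 70.0 FPKM. Where a call or a count turned on either library, the value without it is given in many cases but not in all.

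Promoter sequences are shown for 4 genes that rose and 2 that fell in differentiation medium in all 3 regions, because genes of both kinds hold the core motif of the hypoxia-inducible factors. Each is a RefSeq window of the 250 bases before a gene's start on GRCm38.p6, whereas the expression table uses mm39. Capitals mark ACGTG or GCGTG on either strand, so the other strand reads CACGT or CACGC, and a palindromic CACGTG counts on both strands.
Bnip3, chr7:138909507-138909756, minus strand: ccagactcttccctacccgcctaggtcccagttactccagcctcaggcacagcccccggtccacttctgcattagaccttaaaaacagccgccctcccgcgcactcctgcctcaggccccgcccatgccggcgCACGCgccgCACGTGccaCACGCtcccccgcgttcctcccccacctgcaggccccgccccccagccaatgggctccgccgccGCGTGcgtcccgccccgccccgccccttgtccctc
Ldha, chr7:46845554-46845803, plus strand: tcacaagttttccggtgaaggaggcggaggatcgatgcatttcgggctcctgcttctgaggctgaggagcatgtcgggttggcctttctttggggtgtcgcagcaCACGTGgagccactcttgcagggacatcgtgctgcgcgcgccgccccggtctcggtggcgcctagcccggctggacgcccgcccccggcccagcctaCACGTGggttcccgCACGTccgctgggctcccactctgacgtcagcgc
Higd1a, chr9:121857797-121858046, minus strand: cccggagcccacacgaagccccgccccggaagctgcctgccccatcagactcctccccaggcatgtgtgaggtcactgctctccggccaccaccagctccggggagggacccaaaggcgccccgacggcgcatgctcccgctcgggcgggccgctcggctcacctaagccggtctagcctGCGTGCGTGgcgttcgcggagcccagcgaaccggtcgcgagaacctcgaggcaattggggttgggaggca
Pfkfb4, chr9:108991652-108991901, plus strand: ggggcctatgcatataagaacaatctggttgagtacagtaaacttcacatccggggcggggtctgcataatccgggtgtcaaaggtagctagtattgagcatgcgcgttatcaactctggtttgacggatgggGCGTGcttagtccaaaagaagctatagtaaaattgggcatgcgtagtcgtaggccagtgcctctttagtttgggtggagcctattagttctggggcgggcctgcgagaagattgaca
Pfkfb3, chr2:11553930-11554179, minus strand: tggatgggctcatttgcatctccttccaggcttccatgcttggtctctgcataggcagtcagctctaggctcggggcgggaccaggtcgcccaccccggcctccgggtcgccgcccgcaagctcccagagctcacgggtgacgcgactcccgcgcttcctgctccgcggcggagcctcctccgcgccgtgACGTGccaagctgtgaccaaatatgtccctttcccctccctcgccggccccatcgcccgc
Ddit4, chr10:59951771-59952020, minus strand: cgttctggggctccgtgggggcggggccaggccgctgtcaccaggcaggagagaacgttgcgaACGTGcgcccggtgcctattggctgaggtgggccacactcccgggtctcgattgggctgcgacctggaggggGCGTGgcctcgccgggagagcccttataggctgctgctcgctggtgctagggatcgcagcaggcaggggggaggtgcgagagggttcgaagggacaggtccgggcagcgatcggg

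Bnip3 and Ldha each held 5 motif positions in these windows, Higd1a and Ddit4 held 2, and Pfkfb4 and the Pfkfb3 window shown held 1. The second windows of Ldha and Pfkfb3, not shown, held 1 and 3. Over the 33 genes of the set with an entry, 41 of 50 windows (82%) held ACGTG or GCGTG, against 38.6% of all 32851 windows of the same length. ACGTG alone was in 48% of the windows of the set and in 16.6% of all windows, and GCGTG in 58% and 28.2%. The motif was in 13 of 16 windows of the genes called higher in all 3 regions and in 3 of 3 windows of the genes called lower in all 3. The comparison with all promoters was not matched on base composition, and a match is a stretch of letters, not a measured binding site. The set was chosen to include known hypoxia targets, so a higher share than in all promoters says little by itself. Some windows of the same gene overlap, such as those of Aldoa, Eno1 and Pfkm, and count the same match more than once.

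In each region more of the genes passed as higher in differentiation medium than as lower. In proximal organoids 27 of the 35 tested genes passed the test (adjusted p under 0.05, limma with Benjamini-Hochberg adjustment over 12896 genes), 25 higher and 2 lower, where 53.8% of all tested genes passed, 27.6% higher and 26.2% lower. In mid organoids 19 passed, 16 higher and 3 lower, against 63.5% of all genes, 31.5% higher and 32% lower. In distal organoids 23 passed, 20 higher and 3 lower, against 62.9% of all genes, 31.6% higher and 31.3% lower. The share of genes called in either direction was thus above the background in proximal organoids and near or below it in mid and distal organoids, while the split by direction leaned to higher in each region. The median log2 fold change of log2(FPKM + 1) over the 35 genes was 0.92 in proximal, 0.62 in mid and 0.72 in distal organoids, and that of all tested genes was -0.01, 0.00 and 0.00.

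With libraries scaled to total reads, the median of all tested genes moved to -0.25 in proximal, -0.33 in mid and -0.34 in distal organoids. The calls then split into 21 higher against 2 lower genes for proximal organoids, 10 against 6 for mid and 13 against 5 for distal. Under that scaling the shares of all tested genes were 18.5% higher and 40.1% lower for proximal, 19.2% against 46.6% for mid, and 18.6% against 47.3% for distal organoids. The recovered reads were 0.831 to 0.873 times the library size behind the FPKM in the 9 controls and 0.959 to 1.32 times in the 9 differentiation libraries, so the scaling moves with the medium. The calls that turned up on the lower side in mid organoids under that scaling were Eno1, Pgam1 and Pkm, and in distal organoids Eno1 and Pkm. All log2 fold changes here are on the log2(FPKM + 1) scale, which understates the change of genes with low levels.

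Marker genes of the epithelial cell types moved with the medium as well. The summed FPKM of 6 crypt stem markers was 111 to 177 in control and 9.89 to 34.6 in differentiation libraries, that of 6 colonocyte markers 294 to 2157 and 13955 to 24570, and that of 6 goblet markers 40.1 to 336 and 976 to 3279. Mitochondrial genes took 2.16% to 2.99% of reads in mid and distal controls and 3.99% to 5.57% in mid and distal differentiation libraries, and 2.01% to 2.09% and 2.46% to 2.79% in proximal organoids. In bulk RNA a different number of cells of a type and a different amount of RNA per cell cannot be told apart, and the part of these markers and of the mitochondrial share in the medium response of the genes below was not tested.

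**Figure D1:**
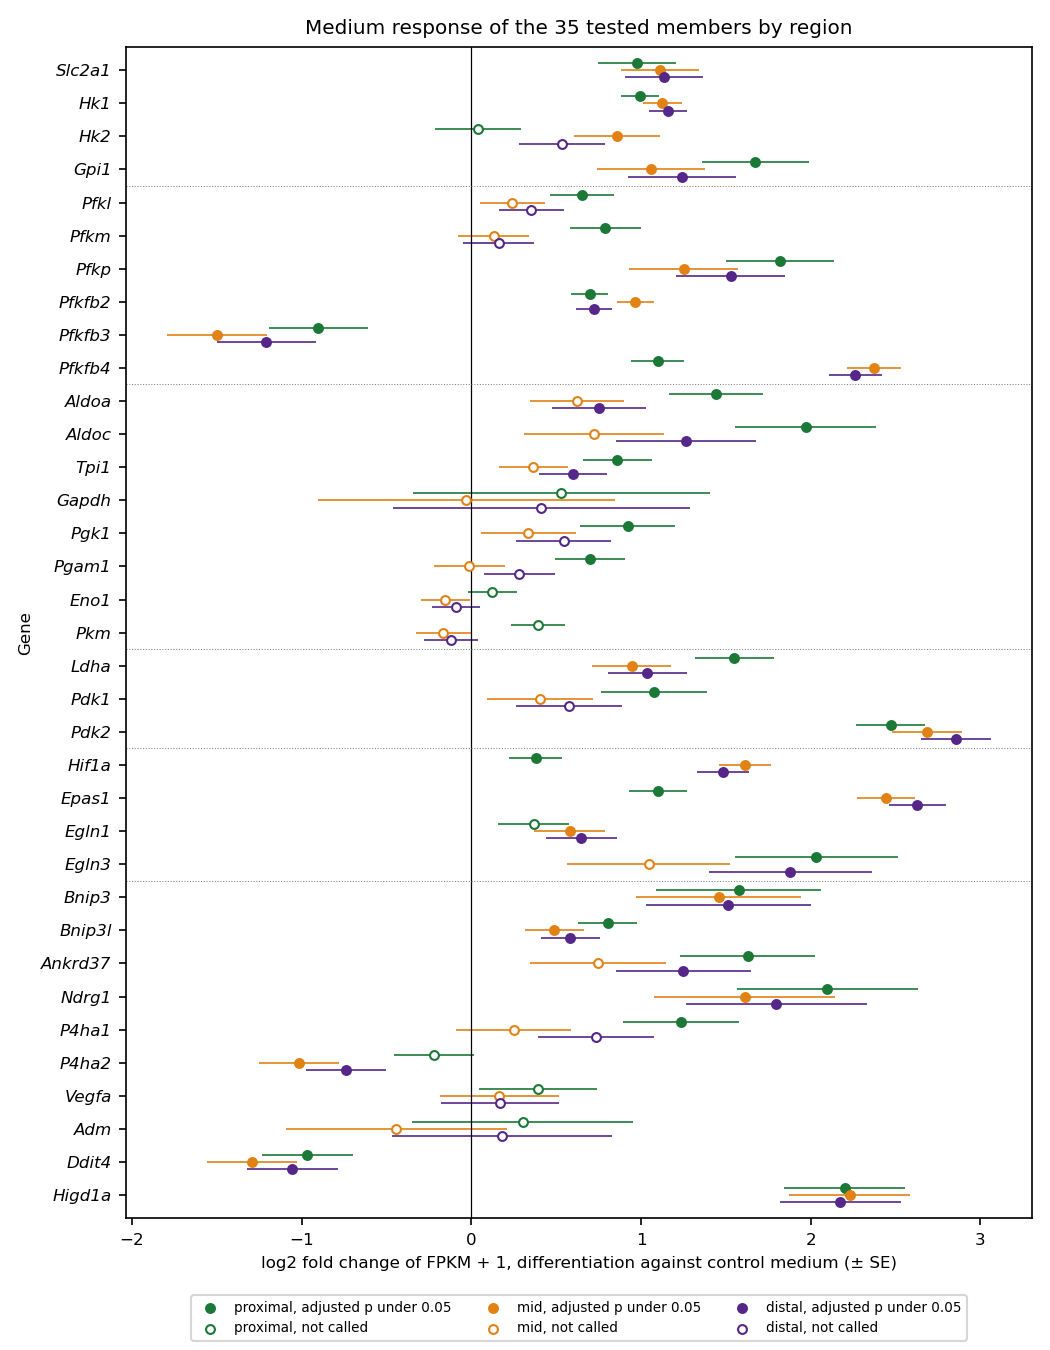
Log2 fold change of FPKM + 1, differentiation against control medium (x axis, point and SE from limma, 3 libraries a group), for the 35 tested genes (y axis, in blocks by role) in proximal (green), mid (orange) and distal (purple) organoids, filled where the adjusted p was under 0.05. Most points lie right of 0, with Pdk2 farthest at 2.47 to 2.86, and Pfkfb3 and Ddit4 lie left of 0 in all 3 regions.

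Across regions, 14 of 35 genes (40%) were called higher in all 3, against 20.1% of all tested genes, and 2 (5.71%), Pfkfb3 and Ddit4, were called lower in all 3, against 19.5%. The 14 were Slc2a1, Hk1 and Gpi1 of glucose uptake and the first steps, Pfkp, Pfkfb2 and Pfkfb4 of the phosphofructokinase step, Ldha and Pdk2 of the lactate and pyruvate switch, Hif1a and Epas1, and the targets Bnip3, Bnip3l, Ndrg1 and Higd1a. Not all of the 14 kept this under scaling to total reads. There Hif1a lost its proximal call, Gpi1 and Ndrg1 their mid calls, and Bnip3 and Bnip3l their mid and distal calls. Another 6 genes were called higher in 2 regions and 7 in 1 region, P4ha2 was lower in 2, and 5 (Gapdh, Eno1, Pkm, Vegfa and Adm) passed in none.

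The gene of the main glucose transporter rose with the medium in each region. Slc2a1, the basal glucose transporter GLUT1, was at 124, 72.0 and 79.4 FPKM in the 3 proximal control libraries and at 140.4, 208 and 188 in the proximal differentiation libraries. In mid organoids it was at 90.2, 82.9 and 92.3 FPKM in control and 172, 164 and 251 FPKM in differentiation medium, and in distal organoids at 81.8, 63.6 and 90.5 FPKM in control and 222, 143 and 161 FPKM in differentiation medium. No differentiation library fell within the range of the controls of its region, and proximal control replicate 1 and proximal differentiation replicate 1 came closest to each other. The log2 fold changes were 0.98 ± 0.23 (SE, adjusted p = 0.00243) in proximal, 1.11 ± 0.23 (adjusted p = 6.34e-04) in mid and 1.14 ± 0.23 (adjusted p = 5.56e-04) in distal organoids by limma. Slc2a3, the neuronal type transporter GLUT3, had 0 or 1 read per library and was not tested.

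The hexokinases, which trap glucose in the cell as its phosphate, gave different calls. Hk1 was at 31.1, 26.8 and 26.9 FPKM in proximal control and 49.4, 63.0 and 59.9 in proximal differentiation libraries. Its levels were 33.0, 26.8 and 28.2 FPKM in control and 65.1, 66.3 and 63.6 FPKM in differentiation medium in mid, and 26.7, 30.1 and 29.2 FPKM in control and 71.6, 65.5 and 58.8 FPKM in differentiation medium in distal organoids. All 9 differentiation libraries stood above all 9 controls, with log2 fold changes of 0.99 ± 0.11 (adjusted p = 6.38e-06), 1.13 ± 0.11 (adjusted p = 9.75e-07) and 1.16 ± 0.11 (adjusted p = 8.80e-07) in proximal, mid and distal organoids. Hk2, the inducible hexokinase and a known hypoxia target, was at 47.9, 23.8 and 22.4 FPKM in proximal control and 33.6, 30.4 and 27.3 in proximal differentiation libraries. In mid organoids it was at 49.8, 33.5 and 36.6 FPKM in control and 78.5, 64.3 and 74.5 FPKM in differentiation medium, and in distal organoids at 31.4, 35.8 and 30.4 FPKM in control and 67.6, 38.5 and 41.1 FPKM in differentiation medium. Hk2 passed the test only in mid organoids (log2 fold change 0.86 ± 0.25, adjusted p = 0.00805), the proximal groups overlapped (0.04 ± 0.25, adjusted p = 0.909), and the distal difference was 0.54 ± 0.25 (adjusted p = 0.0772). Scaled to total reads, the mid call of Hk2 was lost (adjusted p = 0.142). The difference of the Hk2 response between distal and proximal organoids was 0.50 ± 0.36 and did not pass (adjusted p = 0.447). Gpi1, the isomerase that follows hexokinase, ranged from 103 to 175 FPKM over all controls and from 218 to 567 in differentiation libraries, with log2 fold changes of 1.67, 1.06 and 1.24, all called. The mid call of Gpi1 was lost under scaling to total reads (limma adjusted p = 0.0558).

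At the phosphofructokinase step all 6 genes passed in proximal organoids, 5 higher and 1 lower, and 4 of 6 in mid and in distal organoids, 3 higher and 1 lower each. Of all tested genes 53.8%, 63.5% and 62.9% passed in proximal, mid and distal organoids, so the mid and distal counts are near the background. Pfkp, the platelet type subunit, was at 28.2, 10.8 and 9.78 FPKM in proximal control and 43.7, 63.1 and 55.9 in proximal differentiation libraries. In mid organoids Pfkp was at 24.4, 19.1 and 15.9 FPKM in control and 50.7, 44.5 and 48.6 FPKM in differentiation medium, and in distal organoids at 22.8, 18.6 and 13.7 FPKM in control and 75.1, 51.4 and 40.4 FPKM in differentiation medium. The groups did not overlap in any region, and the log2 fold changes of Pfkp were 1.82 ± 0.32 (adjusted p = 2.69e-04), 1.25 ± 0.32 (adjusted p = 0.00306) and 1.53 ± 0.32 (adjusted p = 7.01e-04). The other subunits passed in proximal organoids, Pfkl, the liver type, by 0.65 ± 0.19 (adjusted p = 0.00951) and Pfkm, the muscle type, by 0.79 ± 0.21 (adjusted p = 0.00502). Both calls were lost under scaling to total reads, and that of Pfkl also without proximal differentiation replicate 2. In mid and distal organoids the differences of Pfkl were 0.24 and 0.35 and those of Pfkm 0.13 and 0.16 with overlapping groups. Whether the response of Pfkm differed between distal and proximal organoids was tested and did not pass (-0.63 ± 0.29, adjusted p = 0.216).

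The PFKFB enzymes make and break the sugar bisphosphate that activates phosphofructokinase, and the members moved in opposite directions. Pfkfb3, the member whose kinase activity far outweighs its phosphatase activity, was at 17.1, 6.22 and 8.76 FPKM in proximal control and 3.23, 6.13 and 5.50 in proximal differentiation libraries. In mid organoids Pfkfb3 was at 16.7, 9.78 and 12.9 FPKM in control and 3.55, 3.10 and 5.31 FPKM in differentiation medium, and in distal organoids at 11.2, 16.5 and 14.2 FPKM in control and 5.23, 5.64 and 5.37 FPKM in differentiation medium. It fell in each region, by 0.90 ± 0.29 on the log2 scale (adjusted p = 0.0171) in proximal, 1.5 ± 0.29 (adjusted p = 3.82e-04) in mid and 1.21 ± 0.29 (adjusted p = 0.00214) in distal organoids. The lowest proximal control stood just above the highest proximal differentiation library, and the proximal call was lost without proximal control replicate 1 (log2 fold change -0.53, adjusted p = 0.101) and without proximal differentiation replicate 1 (-0.67, adjusted p = 0.0759). Pfkfb4 (mm39, chromosome 9, 108820846 to 108861296) was at 1.16, 0.816 and 0.748 FPKM in proximal control and 3.29, 3.03 and 2.89 in proximal differentiation libraries. In mid organoids Pfkfb4 was at 1.53, 1.10 and 1.17 FPKM in control and 11.9, 9.21 and 11.1 FPKM in differentiation medium, and in distal organoids at 1.32, 1.53 and 0.803 FPKM in control and 11.3, 10.3 and 7.44 FPKM in differentiation medium. Its differentiation levels in mid and distal organoids stood above every proximal library, while the controls of all regions overlapped. The log2 fold changes of Pfkfb4 were 1.10 ± 0.16 (adjusted p = 5.53e-05), 2.37 ± 0.16 (adjusted p = 1.84e-08) and 2.26 ± 0.16 (adjusted p = 3.37e-08). Per library, the ratio of Pfkfb4 to Pfkfb3, both in FPKM, was 0.0565 to 0.131 over all controls, and 0.494 to 1.02 in proximal, 2.09 to 3.37 in mid and 1.39 to 2.16 in distal differentiation libraries. Pfkfb2, a heart type member, was called higher in all 3 regions, by 0.70, 0.97 and 0.72, at 2.86 to 4.04 FPKM in controls and 5.39 to 7.44 in differentiation medium.

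The enzymes from aldolase to pyruvate kinase gave 5 calls of 8 in proximal, 0 in mid (by limma, with 1 at an unadjusted p under 0.05) and 3 in distal organoids, all higher, against 27.6%, 31.5% and 31.6% of all tested genes higher. Aldoa, the main aldolase, was at 718, 438 and 448 FPKM in proximal control and 954, 1877 and 1579 in proximal differentiation libraries (log2 fold change 1.44 ± 0.28, adjusted p = 5.43e-04). Its differences were 0.62 ± 0.28 (adjusted p = 0.0616) in mid and 0.75 ± 0.28 (adjusted p = 0.0276) in distal organoids. The distal call of Aldoa was lost in 6 of 13 alternatives (limma adjusted p up to 0.278). Among them were scaling to total reads and the fit without distal differentiation replicate 1 (0.47, adjusted p = 0.151). Aldoc, a minor aldolase in these cultures, differed by 1.97, 0.72 and 1.26, and Tpi1, the triose phosphate isomerase, by 0.86, 0.37 and 0.60 in proximal, mid and distal organoids, with the mid values of both not called. The distal calls of Aldoc and Tpi1 were each lost in 3 of 13 alternatives, among them scaling to total reads. Pgk1 and Pgam1, the kinase and the mutase that follow, were called only in proximal organoids (0.92, adjusted p = 0.0121, and 0.70, adjusted p = 0.0107). The call of Pgk1 was lost in 1 and that of Pgam1 in 3 of 13 alternatives.

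Eno1 and Pkm, of the last steps of the pathway, were among the most abundant genes of the set and did not pass. Genes outside the set that encode enzymes of the same steps did move. Pklr, another pyruvate kinase gene, was called higher in all 3 regions (1.49, 0.77 and 0.58). Mean levels of Eno3, another enolase gene, were 2.79, 29.4 and 54.9 FPKM in proximal, mid and distal controls. In differentiation medium they were 3.57, 162 and 230 FPKM. Pkm, pyruvate kinase, was at 690.3, 497 and 534 FPKM in proximal control and 651, 828 and 770.3 in proximal differentiation libraries. Mid organoids had 701, 689 and 567 FPKM in control and 579, 567 and 594 FPKM in differentiation medium, and distal organoids 647, 856 and 670.1 FPKM in control and 755, 633 and 606 FPKM in differentiation medium. The groups overlapped in each region, and the log2 fold changes of Pkm were 0.39 ± 0.16 (adjusted p = 0.0511), -0.16 ± 0.16 (adjusted p = 0.389) and -0.12 ± 0.16 (adjusted p = 0.535). Without proximal control replicate 1 the proximal difference of Pkm was 0.53 (adjusted p = 0.0158), and without proximal differentiation replicate 1 it was 0.49 (adjusted p = 0.0257). Eno1, enolase, ranged from 318 to 485 FPKM over all 18 libraries and differed by 0.12, -0.15 and -0.09.

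Gapdh, the dehydrogenase often used as a reference gene, was listed at 1.96 to 7.78 FPKM in 16 libraries, at 52.0 in mid control replicate 3 and at 64.3 in mid differentiation replicate 2. These levels lie far below those of its neighbours in the pathway, such as Pgk1 at 420 to 1341 FPKM. Gapdh has near-identical copies in the genome, and how reads that match several places were counted is not given, so its values are uncertain. Copies of other members were counted at lower levels than the members, the highest being Tpi-rs11 at 37.9, Eno1b at 19.3, Pgam1-ps2 at 10.2 and Ldha-ps2 at 9.84 FPKM.

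**Figure D2:**
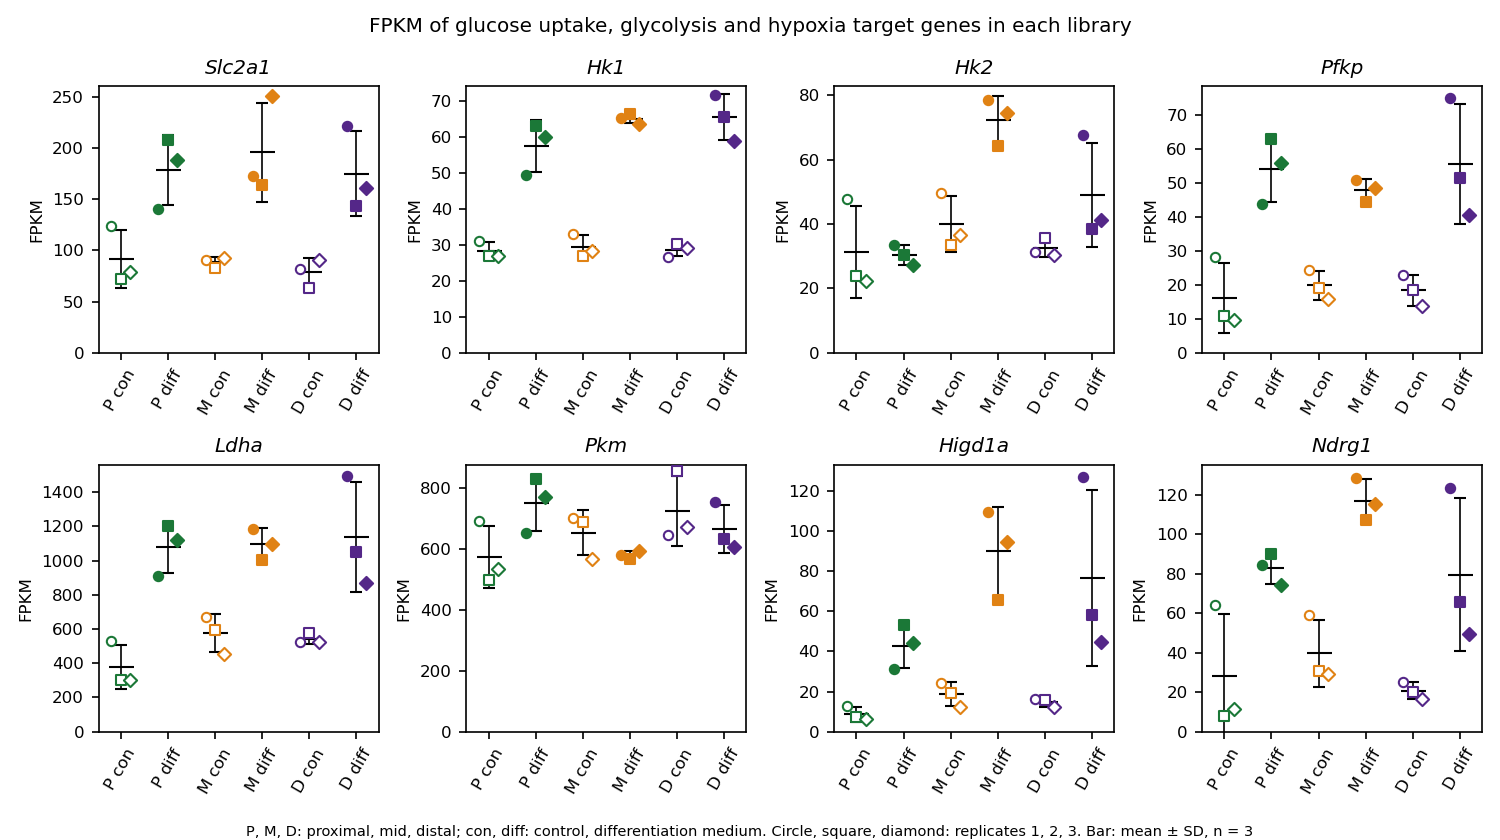
FPKM (y axis, from 0) of 8 genes of glucose uptake, glycolysis and the hypoxia response in each of the 6 groups (x axis), with replicates 1, 2 and 3 as circle, square and diamond, open for control and filled for differentiation medium, and the mean ± SD of 3 libraries. Hk1 separates the media cleanly while Pkm does not, and proximal control replicate 1 stands above the other proximal controls in each panel.

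Ldha and Pdk2, of pyruvate handling, rose with the medium in each region. Ldha, the lactate dehydrogenase subunit that favours lactate, was at 529.8, 302 and 303 FPKM in proximal control and 909.9, 1201 and 1120.2 in proximal differentiation libraries. In mid organoids Ldha was at 673, 597 and 454 FPKM in control and 1187, 1001 and 1099 FPKM in differentiation medium, and in distal organoids at 522, 574 and 524 FPKM in control and 1497, 1048 and 869 FPKM in differentiation medium. All 9 differentiation libraries stood above all 9 controls, and the log2 fold changes were 1.55 ± 0.23 (adjusted p = 8.16e-05), 0.95 ± 0.23 (adjusted p = 0.00249) and 1.04 ± 0.23 (adjusted p = 0.00128). Ldhb, the subunit that favours pyruvate, had 0 to 12 reads per library (at most 0.418 FPKM) and was not tested.

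Pdk1 and Pdk2, the kinases in the set that switch off pyruvate dehydrogenase, both passed in proximal organoids, and Pdk2 in all 3 regions. Pdk2, the widely expressed kinase, was at 5.002, 4.78 and 3.59 FPKM in proximal control and 19.0, 39.4 and 32.5 in proximal differentiation libraries. In mid organoids Pdk2 was at 6.44, 6.07 and 4.75 FPKM in control and 40.6, 43.8 and 42.5 FPKM in differentiation medium, and in distal organoids at 4.53, 5.70 and 4.37 FPKM in control and 45.6, 44.2 and 34.9 FPKM in differentiation medium. The lowest differentiation library, proximal replicate 1, still stood above the highest control, and the log2 fold changes were 2.47 ± 0.21 (adjusted p = 3.37e-07), 2.69 ± 0.21 (adjusted p = 6.98e-08) and 2.86 ± 0.21 (adjusted p = 4.31e-08). Pdk1, the kinase known as a target of the hypoxia-inducible factor, was at 19.9, 8.38 and 8.72 FPKM in proximal control and 17.0, 32.4 and 28.8 in proximal differentiation libraries, and replicate 1 of each group made them overlap (1.08 ± 0.31, adjusted p = 0.00888). The Pdk1 difference was 1.45 without proximal control replicate 1 and 1.34 without proximal differentiation replicate 1, both called. In mid and distal organoids the Pdk1 differences were 0.41 ± 0.31 (adjusted p = 0.27) and 0.58 ± 0.31 (adjusted p = 0.118).

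The genes for the hypoxia-inducible factors rose with the medium and differed between regions. Hif1a (chromosome 12, 73948149 to 73994304) was at 12.3, 13.7 and 13.9 FPKM in proximal control and 13.9, 18.7 and 20.9 in proximal differentiation libraries. In mid organoids Hif1a was at 15.1, 15.7 and 18.9 FPKM in control and 47.3, 52.0 and 59.1 FPKM in differentiation medium, and in distal organoids at 21.5, 26.3 and 24.3 FPKM in control and 83.3, 66.8 and 58.5 FPKM in differentiation medium. Every mid and distal differentiation library stood above every other library of the series, while the highest proximal control and the lowest proximal differentiation library both came to 13.9 FPKM. The log2 fold changes were 1.61 ± 0.15 (adjusted p = 6.14e-07) in mid and 1.48 ± 0.15 (adjusted p = 1.57e-06) in distal organoids. In proximal organoids the change was 0.38 ± 0.15 (adjusted p = 0.0492), and this call was lost in 9 of 13 alternatives, among them TMM scaling and the fit without proximal control replicate 1 (0.33, adjusted p = 0.135).

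Epas1 (chromosome 17, 87061128 to 87140838), which encodes the second alpha subunit, was at 8.30, 7.65 and 8.77 FPKM in proximal control and 13.8, 23.5 and 20.4 in proximal differentiation libraries. In mid organoids Epas1 was at 3.93, 2.92 and 2.85 FPKM in control and 21.9, 22.1 and 21.6 FPKM in differentiation medium, and in distal organoids at 1.498, 2.27 and 2.64 FPKM in control and 16.4, 19.9 and 18.3 FPKM in differentiation medium. In control medium the 3 regions did not overlap, with proximal highest and distal lowest, although the step from mid to distal did not pass (-0.44 ± 0.17, adjusted p = 0.652), whereas in differentiation medium the ranges of proximal and distal organoids overlapped. The log2 fold changes with the medium were 1.10 ± 0.17 (adjusted p = 9.84e-05) in proximal, 2.44 ± 0.17 (adjusted p = 2.95e-08) in mid and 2.63 ± 0.17 (adjusted p = 1.58e-08) in distal organoids. Per library, the ratio of Epas1 to Hif1a in FPKM was 0.559 to 0.672 in proximal, 0.151 to 0.260 in mid and 0.0695 to 0.109 in distal controls. In differentiation medium this ratio was 0.977 to 1.26, 0.365 to 0.464 and 0.197 to 0.313, so in each medium the regions kept the same order without overlap.

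The oxygen sensors passed in 2 of 3 regions each. Egln1, the main prolyl hydroxylase, was at 27.4, 18.3 and 17.0 FPKM in proximal control and 21.7, 31.7 and 27.4 in proximal differentiation libraries, and that difference did not pass (0.37 ± 0.21, adjusted p = 0.15). In mid organoids Egln1 was at 33.0, 26.7 and 20.6 FPKM in control and 42.6, 38.2 and 38.7 FPKM in differentiation medium, and in distal organoids at 26.3, 23.9 and 21.2 FPKM in control and 47.4, 38.9 and 29.1 FPKM in differentiation medium. There Egln1 rose by 0.58 ± 0.21 (adjusted p = 0.0244) and 0.65 ± 0.21 (adjusted p = 0.0137), and the distal call was lost without distal differentiation replicate 1 (0.49, adjusted p = 0.0734). Scaled to total reads, the distal call of Egln1 was also lost (adjusted p = 0.35). Its mid call was lost in 4 of 13 alternatives, among them that scaling (limma adjusted p up to 0.4765). Egln3, the hydroxylase that is itself induced by low oxygen, was at 118, 26.7 and 31.3 FPKM in proximal control and 124, 276 and 212 in proximal differentiation libraries. In mid organoids Egln3 was at 147, 95.6 and 90.2 FPKM in control and 231, 170.1 and 287 FPKM in differentiation medium, and in distal organoids at 117, 83.4 and 105 FPKM in control and 665, 296 and 266 FPKM in differentiation medium. Replicate 1 stood out in the proximal control and distal differentiation groups, and the log2 fold changes were 2.03 ± 0.48 (adjusted p = 0.00239), 1.04 ± 0.48 (adjusted p = 0.0687) and 1.88 ± 0.48 (adjusted p = 0.00309). The proximal difference of Egln3 was 2.7 without proximal control replicate 1 and 2.35 without proximal differentiation replicate 1, both called.

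**Figure D3:**
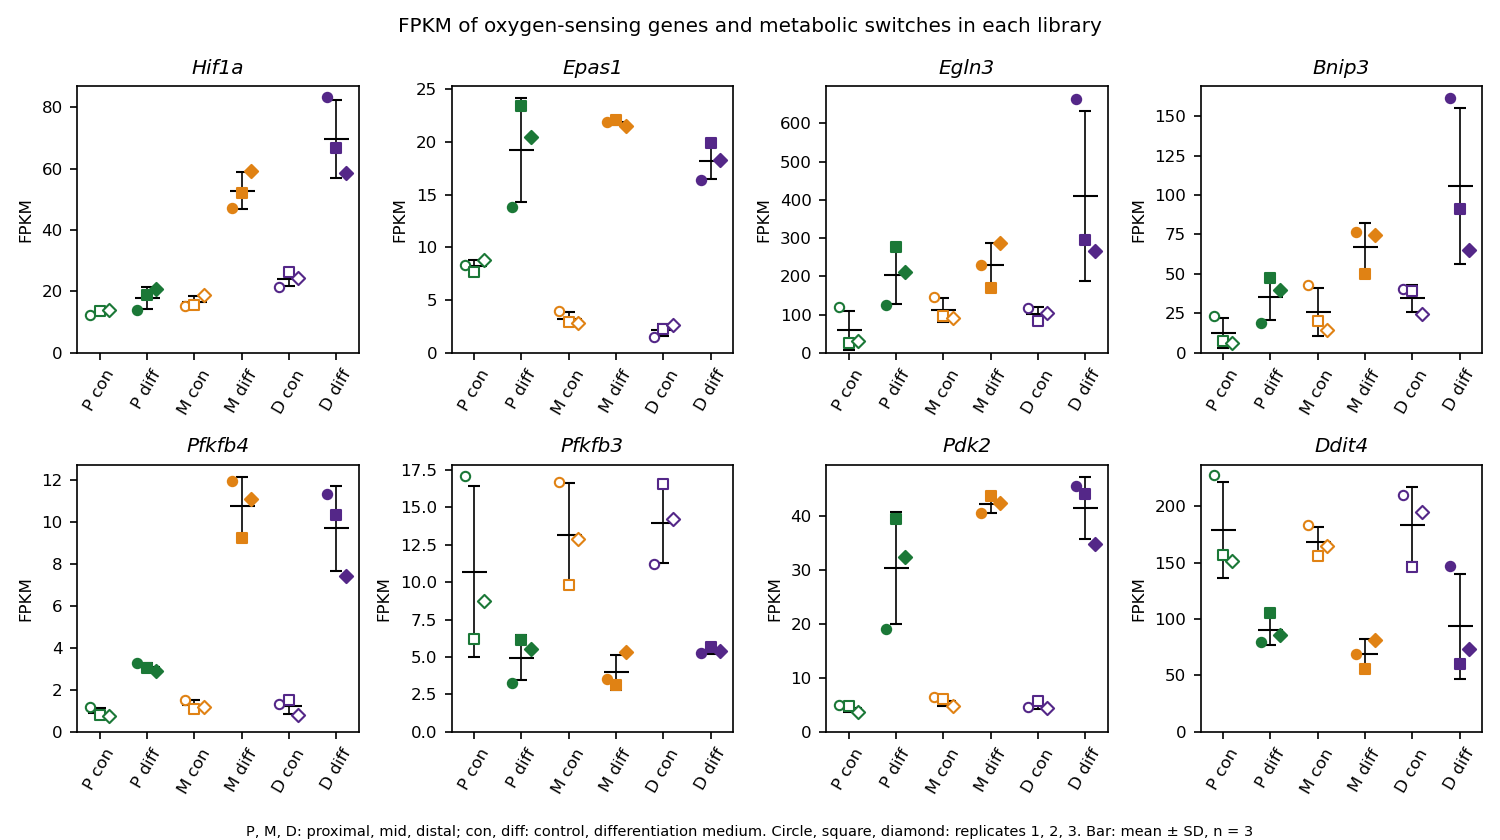
FPKM (y axis, from 0) of 8 genes of oxygen sensing and metabolic switching in each of the 6 groups (x axis), with replicates 1, 2 and 3 as circle, square and diamond, open for control and filled for differentiation medium, and the mean ± SD of 3 libraries. Hif1a and Pfkfb4 are highest in mid and distal differentiation libraries, Epas1 is highest in proximal among the controls, and Pfkfb3 and Ddit4 are lower in differentiation medium.

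Of the 10 hypoxia response targets, 7 passed in proximal organoids (6 higher, 1 lower), 6 in mid (4 higher, 2 lower) and 7 in distal organoids (5 higher, 2 lower). Set against the 53.8%, 63.5% and 62.9% of all tested genes that passed, the mid and distal counts lie near the background. Higd1a, a mitochondrial inner membrane protein, was at 13.0, 7.09 and 6.17 FPKM in proximal control and 31.4, 53.0 and 44.2 in proximal differentiation libraries. In mid organoids Higd1a was at 24.2, 19.3 and 12.3 FPKM in control and 109, 65.9 and 94.6 FPKM in differentiation medium, and in distal organoids at 16.2, 15.7 and 12.1 FPKM in control and 127, 58.4 and 44.5 FPKM in differentiation medium. All 9 differentiation libraries stood above all 9 controls, and the log2 fold changes were close, at 2.20 ± 0.36 (adjusted p = 1.46e-04), 2.23 ± 0.36 (adjusted p = 7.25e-05) and 2.17 ± 0.36 (adjusted p = 9.54e-05).

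Bnip3, a receptor for the removal of mitochondria, was at 23.3, 7.17 and 6.52 FPKM in proximal control and 18.9, 47.6 and 39.8 in proximal differentiation libraries. In mid organoids Bnip3 was at 43.0, 20.2 and 14.5 FPKM in control and 76.6, 49.7 and 74.9 FPKM in differentiation medium, and in distal organoids at 40.1, 38.9 and 24.8 FPKM in control and 161, 90.9 and 65.4 FPKM in differentiation medium. The proximal groups overlapped through replicate 1 of each, the others did not overlap, and the log2 fold changes were 1.57 ± 0.49 (adjusted p = 0.0131), 1.46 ± 0.49 (adjusted p = 0.0162) and 1.51 ± 0.49 (adjusted p = 0.0134). In proximal organoids the Bnip3 difference was 2.12 without proximal control replicate 1 and 1.96 without proximal differentiation replicate 1, both called. Its calls were lost when other single libraries were left out, such as the distal call without distal differentiation replicate 1 (1.16, adjusted p = 0.0714). The mid and distal calls of Bnip3 were also lost under scaling to total reads. The related receptor Bnip3l rose by 0.80, 0.49 and 0.58, all called. Scaled to total reads, the mid and distal calls of Bnip3l were lost (adjusted p = 0.707 and 0.413), and the mid call also without mid control replicate 2 or 3 or mid differentiation replicate 3. Ndrg1, a stress-responsive differentiation gene, was at 64.2, 8.10 and 11.6 FPKM in proximal control and 84.5, 89.99 and 74.2 in proximal differentiation libraries. In mid organoids Ndrg1 was at 59.0, 30.5 and 29.3 FPKM in control and 128, 107 and 115 FPKM in differentiation medium, and in distal organoids at 25.2, 20.3 and 16.8 FPKM in control and 123, 65.7 and 49.3 FPKM in differentiation medium. The groups of Ndrg1 did not overlap in any region, and its log2 fold changes were 2.10 ± 0.53 (adjusted p = 0.00398), 1.61 ± 0.53 (adjusted p = 0.0156) and 1.80 ± 0.53 (adjusted p = 0.00838). In proximal organoids the Ndrg1 difference was 2.97 without control replicate 1 and 2.08 without differentiation replicate 1, both called. Its mid call was lost in 3 of 13 alternatives, scaling to total reads and the fits without mid control replicate 2 or 3 (adjusted p up to 0.06). Ankrd37, a small ankyrin repeat protein, was called in proximal (1.63) and distal (1.25) organoids, the latter not without distal differentiation replicate 1 (0.97, adjusted p = 0.0692).

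Ddit4, an inhibitor of mTOR signalling that low oxygen and other stresses induce, moved the other way. It was at 228, 157 and 152 FPKM in proximal control and 79.3, 105 and 86.2 in proximal differentiation libraries. In mid organoids Ddit4 was at 183, 156 and 165 FPKM in control and 69.0, 55.4 and 81.8 FPKM in differentiation medium, and in distal organoids at 210.1, 146 and 195 FPKM in control and 147, 60.4 and 73.8 FPKM in differentiation medium. It fell by 0.97 ± 0.27 on the log2 scale (adjusted p = 0.00678), 1.29 ± 0.27 (adjusted p = 6.18e-04) and 1.06 ± 0.27 (adjusted p = 0.00296), with overlap in distal organoids only, where differentiation replicate 1 was high. The collagen prolyl hydroxylases split, P4ha1 being called higher in proximal organoids (1.24 ± 0.34, adjusted p = 0.00668) and P4ha2 lower in mid (-1.02 ± 0.24, adjusted p = 0.00152) and distal organoids (-0.74 ± 0.24, adjusted p = 0.0127).

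Vegfa and Adm, secreted factors that are widely used as hypoxia readouts, did not pass in any region. Vegfa, which drives vessel growth, was at 70.2, 28.9 and 31.4 FPKM in proximal control and 36.9, 70.7 and 56.5 in proximal differentiation libraries. In mid organoids Vegfa was at 60.9, 37.1 and 42.2 FPKM in control and 56.7, 37.2 and 64.4 FPKM in differentiation medium, and in distal organoids at 58.6, 61.7 and 42.2 FPKM in control and 90.4, 49.7 and 48.8 FPKM in differentiation medium. Its log2 fold changes were 0.39 ± 0.35, 0.17 ± 0.35 and 0.17 ± 0.35 (adjusted p = 0.356, 0.697 and 0.684). Adm, the vasodilator adrenomedullin, was at 27.5, 1.89 and 2.66 FPKM in proximal control and 4.95, 10.01 and 7.62 in proximal differentiation libraries, and its 3 log2 fold changes were 0.30 ± 0.65, -0.44 ± 0.65 and 0.18 ± 0.65. Both genes overlapped between media in each region, and proximal control replicate 1 was the highest library of its group for both. Without that library the proximal difference of Adm was 1.35 (adjusted p = 0.0165) and that of Vegfa 0.79 (adjusted p = 0.0569), and without proximal differentiation replicate 1 that of Vegfa was 0.65 (adjusted p = 0.151).

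Differences between regions were fewer. In control medium 3 of 35 genes passed between distal and proximal organoids, against 10.5% of all tested genes (5.57% higher and 4.98% lower in distal). Hif1a was higher in distal organoids (0.80 ± 0.15, adjusted p = 0.00259), Bnip3 was higher (1.61 ± 0.49, adjusted p = 0.0466) and Epas1 was lower (-1.58 ± 0.17, adjusted p = 1.21e-05). The Bnip3 call was lost in 6 of 13 alternatives. Between mid and proximal organoids in control medium 1 gene passed, Epas1 (-1.13 ± 0.17, adjusted p = 3.31e-04), against 13.3% of all genes (7.99% higher and 5.28% lower in mid). These counts depended on proximal control replicate 1, the library with high levels in its group, and without it they were 7 between distal and proximal and 12 between mid and proximal organoids, beside 11.3% and 15.2% of all tested genes in the same fits. The 12 were lower Epas1 and higher Ankrd37, Bnip3, Egln3, Higd1a, Hk2, Ldha, Ndrg1, Pdk1, Pfkp, Pgam1 and Tpi1, of which Ndrg1 (1.85) and Egln3 (1.87) had the largest differences. Between distal and mid organoids 0 of 35 passed in control medium by limma, with 2 at an unadjusted p under 0.05 and 0.326% of all genes called (0.14% higher and 0.186% lower in distal).

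In differentiation medium 3 genes passed between distal and proximal organoids, all higher in distal, against 29.9% of all tested genes (15.6% higher and 14.3% lower). They were Hif1a (1.91 ± 0.15, adjusted p = 2.10e-07), Pfkfb4 (1.38 ± 0.16, adjusted p = 9.93e-06) and Bnip3 (1.55 ± 0.49, adjusted p = 0.0251). Without proximal differentiation replicate 1 the genes called were 5, with Hif1a and Pfkfb4 higher and Aldoa, P4ha1 and P4ha2 lower in distal organoids, and without distal differentiation replicate 3 they were 5, all higher. Of all tested genes 27.8% and 30.6% passed in the same fits. Between mid and proximal organoids 6 passed, against 29.4% of all genes (15.6% higher and 13.7% lower). These were higher Hif1a (1.53 ± 0.15, adjusted p = 2.78e-06), Pfkfb4 (1.52 ± 0.16, adjusted p = 3.73e-06), Hk2 (1.22 ± 0.25, adjusted p = 0.00189) and Higd1a (1.05 ± 0.36, adjusted p = 0.0373), and lower Pfkm (-0.86 ± 0.21, adjusted p = 0.00553) and P4ha2 (-1.08 ± 0.24, adjusted p = 0.00271). Without proximal differentiation replicate 1 this count was 9, with 3 higher (Hif1a, Pfkfb4 and Hk2) and 6 lower genes, beside 27.9% of all tested genes. Epas1, which differed between regions in control medium, differed by -0.05 ± 0.17 between distal and proximal organoids here (adjusted p = 0.869). Between distal and mid organoids 0 of 35 passed by limma, against 0.69% of all genes (0.209% higher and 0.481% lower), with 3 at an unadjusted p under 0.05.

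The response to the medium itself differed between distal and proximal organoids for 3 of the 35 genes (8.57%) by the interaction term of the fit. Of all tested genes 8.24% passed (4.16% with a larger value in distal, 4.09% with a smaller value), so the count is near the background. All 3 had the larger value in distal organoids. The rise in distal organoids exceeded that in proximal organoids by 1.53 ± 0.24 on the log2 scale for Epas1 (adjusted p = 0.00104), by 1.17 ± 0.22 for Pfkfb4 (adjusted p = 0.00436) and by 1.10 ± 0.22 for Hif1a (adjusted p = 0.00527). The F test for any difference of the response among the 3 regions called the same 3 genes, against 9.59% of all tested genes, and the count was 3 without each library in turn. Epas1 started lower in distal control medium and reached a like level in differentiation medium, while Pfkfb4 and Hif1a ended higher in distal differentiation medium.

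**Figure D4:**
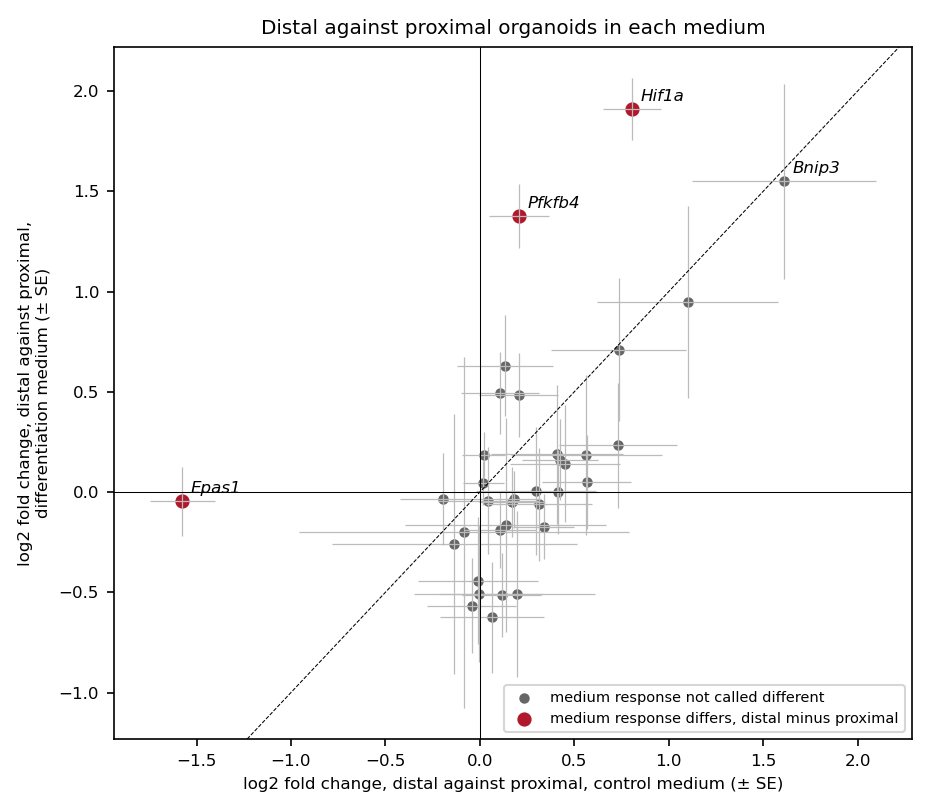
Log2 fold change of FPKM + 1, distal against proximal organoids, in control medium (x axis) and in differentiation medium (y axis), with the SE from limma, for the 35 tested genes, and red points for genes whose medium response differed between both regions. Epas1 lies at -1.58 on the x axis and near 0 on the y axis, Hif1a and Pfkfb4 lie above the dashed line of equal difference, and Bnip3 lies close to it.

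Within groups the genes of the set deviated together in single libraries. Proximal control replicate 1 was the highest library of its group for 33 of 35 genes (94.3%), against 44.9% of all tested genes, with a median deviation from the group mean of 0.46 on the log2(FPKM + 1) scale over the 35 genes and of 0.69 over the 10 hypoxia targets. For Adm and Ndrg1 that library held 27.5 and 64.2 FPKM against 1.89 to 2.66 and 8.10 to 11.6 in the other proximal controls. Mid control replicate 1 was highest for 31 genes (88.6%, against 33.4% of all genes), and distal differentiation replicate 1 for 31 (88.6%, against 40.7%), with median deviations of 0.26 and 0.45. In proximal differentiation medium replicate 1 was lowest for 31 genes (88.6%, against 47.3%), with a median deviation of -0.32, and replicate 2 was highest for 29 (82.9%, against 38.5%). Recovered reads were 1.32 times the library size behind the FPKM in distal differentiation replicate 1, against 1.13 and 1.08 in its group. In proximal differentiation replicate 1 they were 0.959 times, against 1.15 and 1.11. Proximal control replicate 1 was at 0.842 against 0.856 and 0.865, and mid control replicate 1 at 0.857 against 0.871 and 0.870. The part of this scaling in the shared deviation was not tested.

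The members did not share the deviation evenly. In proximal control replicate 1, Hif1a was at 12.3 FPKM against 13.7 and 13.9, while Egln3 was at 118 against 26.7 and 31.3. In proximal differentiation replicate 1, Hif1a and Epas1 were below the group mean by 0.32 and 0.42 on the log2 scale, while Ndrg1 was 0.03 above it. The part of the shared deviation in the region and medium differences was not tested beyond leaving out each library. The count of called genes with the medium was 28 in proximal organoids without proximal control replicate 1 (27 higher, 1 lower), 27 without proximal differentiation replicate 1 (26 higher, 1 lower), and 18 in distal organoids without distal differentiation replicate 1 (14 higher, 4 lower). In those 3 fits 49.4%, 57.7% and 57.3% of all tested genes passed.

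**Figure D5:**
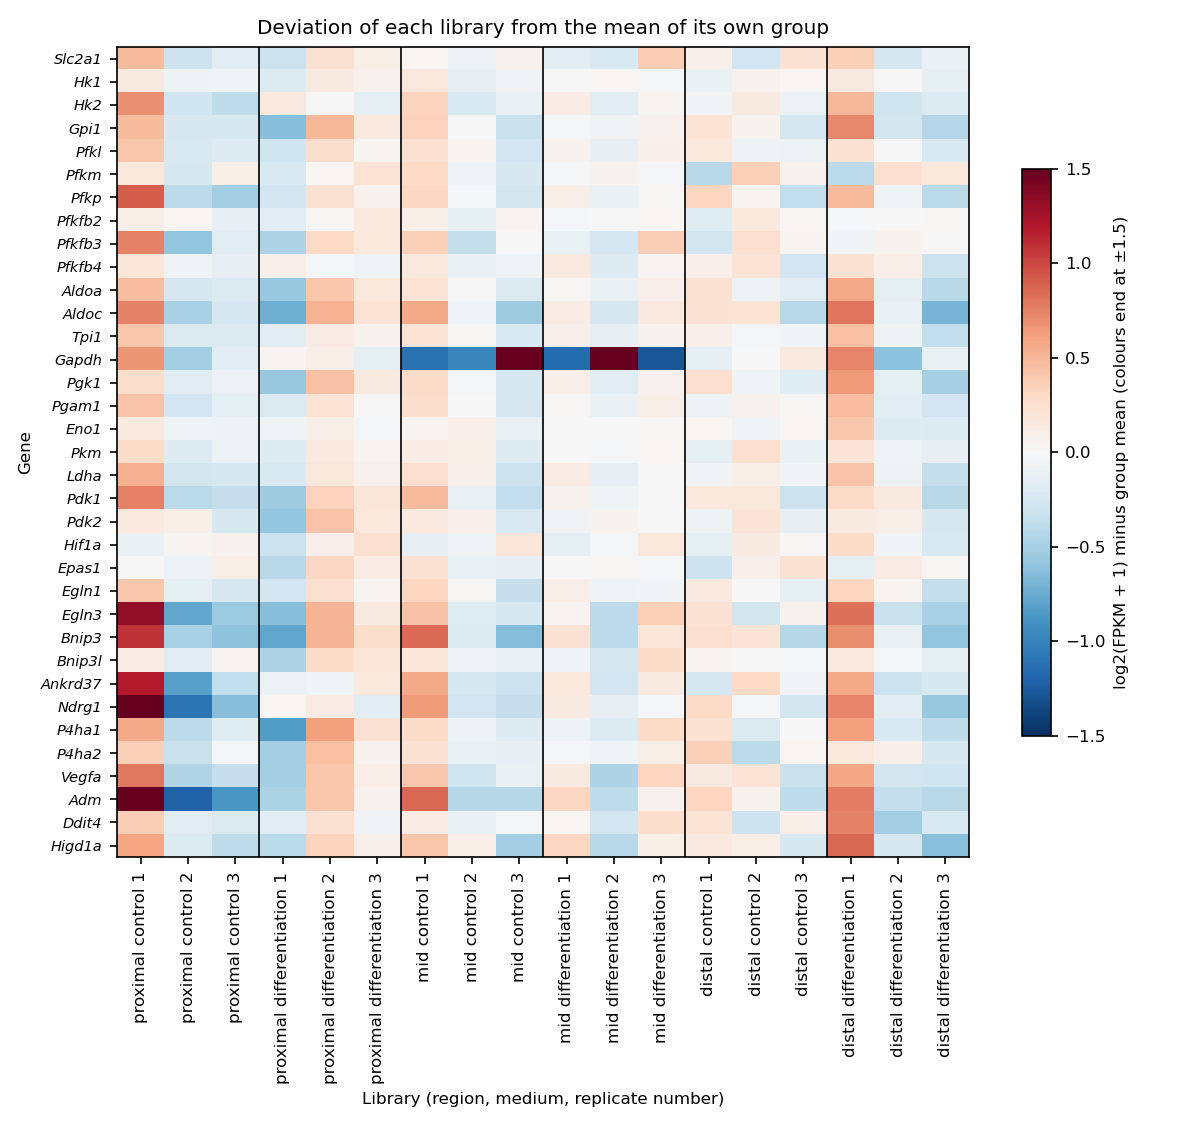
Deviation of each library from the mean of its own group in log2(FPKM + 1) (colour, red above and blue below, ending at ±1.5), for the 35 tested genes (rows) in the 18 libraries (columns, grouped by region and medium). Proximal control replicate 1, mid control replicate 1 and distal differentiation replicate 1 are red and proximal differentiation replicate 1 is blue for most genes, and Gapdh departs from the rest in the mid groups.

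Other genes of the same pathways gave a mixed picture. Their counts stand beside the shares of all tested genes: 27.6% higher and 26.2% lower for proximal, 31.5% against 32% for mid, and 31.6% against 31.3% for distal organoids. Of 15 further tested genes of glycolysis and sugar or lactate transport, 10 passed as higher and 0 as lower in proximal organoids, 8 against 1 for mid and 8 against 3 for distal. Slc5a1, the sodium-coupled glucose transporter, rose by 1.99, 1.62 and 1.91, and Hkdc1, a hexokinase-like enzyme, by 2.94, 1.13 and 0.57. Slc16a1, a carrier of lactate and other monocarboxylates, rose by 1.30, 1.91 and 1.99. Of 11 tested genes of pyruvate entry into the mitochondria, 4 were higher and 1 lower for proximal organoids, 6 against 1 for mid and 7 against 0 for distal. They include Mpc1 and Mpc2, which form the mitochondrial pyruvate carrier and rose by 0.69 to 1.29 and by 0.83 to 1.08 over the 3 regions, and Pcx, pyruvate carboxylase, by 0.96 to 2.34.

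The pentose phosphate pathway, which branches off at glucose phosphate, had 4 of 8 genes higher and 2 lower for proximal organoids, 0 against 4 for mid and 0 against 5 for distal. Rpia, its isomerase, was lower, with log2 fold changes of -0.84, -1.26 and -1.44. Of 5 genes of gluconeogenesis, 1, 2 and 1 were higher and 2 lower in each region, with the cytosolic Pck1 higher (1.64, 2.92 and 2.99) and the mitochondrial Pck2 lower (-1.39, -1.79 and -2.16). Of 5 genes of glucose sensing, 3, 4 and 4 were higher and 0 lower, led by Txnip, an inhibitor of glucose uptake, at 4.18, 3.19 and 3.62, and its relative Arrdc4 at 2.76, 1.91 and 2.0. Mlx, the partner of the glucose-responsive transcription factors, rose by 1.51, 1.49 and 1.39.

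Of 10 further tested genes of the oxygen-sensing machinery, 5 were higher in each region and 1, 3 and 2 were lower in proximal, mid and distal organoids. Cited2, an inhibitor of the factor's transactivation, rose by 1.21, 0.97 and 0.66, and Hif1an, the asparagine hydroxylase, by 0.35, 0.74 and 0.71. Of 24 further known targets, 11 were higher and 4 lower for proximal organoids, 9 against 4 for mid and 11 against 4 for distal, shares of 45.8%, 37.5% and 45.8% for the higher ones against 27.6%, 31.5% and 31.6% of all tested genes, so the mid share is near the background. Fam162a, a mitochondrial protein, rose by 3.19, 1.09 and 1.13. Mif, a cytokine, and Hilpda, a lipid droplet protein, were lower in all 3 regions, with log2 fold changes of -1.08, -1.82 and -1.68 for Mif and of -1.46, -1.53 and -1.31 for Hilpda.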

How the data were processed

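RNA was selected by its poly-A tail and sequenced as bulk libraries, per the labels' protocols, which leave the strandedness of the libraries unstated. The authors deposited FPKM values per gene and library, per the file headers, beside each gene's length and position. Alignment with HISAT2 2.0.5 on mm39 and counting with featureCounts 1.5.0-p3 are listed in the submitters' processing notes. Their library scaling is not stated, and the summed reads were 0.831 to 1.32 times the library size implied by the FPKM, higher in differentiation than in control libraries. Multiplied by gene length, all values were whole multiples of a single step within 0.001 of a read, which gave the read totals.

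The 37 genes, their roles and the lists of other pathway genes were chosen with earlier results of these data known. One linear model with 6 group means was fitted by limma 3.58.1 (R 4.3.3, trended empirical Bayes, two-sided) to log2(FPKM + 1) of the 18 libraries. It took the 12896 genes that reached 1 FPKM in 3 or more libraries. P-values were adjusted by the Benjamini-Hochberg method over these genes, with a threshold of 0.05. The fit was checked on simulated data. Values per library are FPKM and errors of fold changes are SE.

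Values per library are printed for up to 6 genes with the largest mean change in each direction among those called in all 3 regions, up to 6 called between distal and proximal organoids in each medium, those called in the interaction, and Ldha, Ldhb, Hk1, Hk2, Pkm, Slc2a1, Hif1a, Epas1, Vegfa, Egln1 and Egln3. Aldoa, Pdk1, Adm and Gapdh were added after their values were seen. Of the other lists, Pklr and Eno3 were likewise added after their values were seen. Other lists are given by counts and up to 4 genes called the same way in all 3 regions, of which some are not reported here. Alternatives were a pseudocount of 0.1, no filter, a filter of FPKM 5, scaling to total reads, TMM factors on the recovered reads (written out in R), only the groups compared, the replicate block and leaving out each library. Count models planned on recovered reads were not run, since the deposited values are FPKM. The 6 columns of group means by the authors were not used, and 0 value columns could not be mapped. Promoters are from RefSeq on GRCm38.p6.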

Additional observations from a re-analysis of the deposited data

Results flagged for a closer look

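The response to differentiation medium differed between distal and proximal organoids for 3 of the 35 genes, by the interaction term of limma with Benjamini-Hochberg adjustment over all tested genes. This share of 8.57% is near the 8.24% of all tested genes that passed, so the count alone says nothing particular about the set. For Epas1 the distal rise exceeded the proximal one by 1.53 on the log2 scale (adjusted p = 0.00104), for Pfkfb4 by 1.17 (adjusted p = 0.00436) and for Hif1a by 1.1 (adjusted p = 0.00527). Without proximal control replicate 1 the differences were 1.52 for Epas1, 1.07 for Pfkfb4 and 1.15 for Hif1a, and without proximal differentiation replicate 1 they were 1.32, 1.21 and 0.95, all with an adjusted p under 0.05. Their cause was not tested.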

How the results depend on the processing

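Of 88 calls of single genes, 64 passed under every alternative that could be run, 24 were lost under at least 1 and 0 reversed. Scaling to total reads lost 17 calls, no filter 6, only the groups compared 5 (it leaves the F test as it is), TMM factors 1, and the pseudocount of 0.1 and the filter of FPKM 5 lost 0. Under scaling to total reads the count of called genes was 2 between mid and proximal organoids in control medium (1 in the fit reported), 5 between distal and proximal (3) and 10 between mid and proximal (6) in differentiation medium. In that fit 13.2%, 29.2% and 28.9% of all tested genes passed in these comparisons. Leaving out 1 library gave 22 to 28 calls for the medium in proximal, 15 to 19 in mid and 18 to 24 in distal organoids. It gave 2 to 7 between distal and proximal and 1 to 12 between mid and proximal in control medium, 2 to 5 and 5 to 9 in differentiation medium, 0 between distal and mid in either medium, and 3 for the interaction and the F test. The highest control counts, 7 and 12, came without proximal control replicate 1. The cause of these shifts was not tested. With the replicate block 0 calls were lost, and the count between mid and proximal in control medium was 2 against 1. The block gave 24 against 23 for the medium in distal organoids, 4 against 3 between distal and proximal and 7 against 6 between mid and proximal in differentiation medium, and no other count moved. The same replicate number in different groups gave correlations of deviations from -0.387 to 0.542 (median 0.107, 23 of 45 pairs over 0.1). Different numbers gave -0.468 to 0.399 (median -0.0629, 20 of 90 pairs over 0.1). Libraries of the same number were thus more alike by the median, with ranges that overlapped. Deviations from a group mean cancel within the group, so both sets of correlations depend on each other. Part of the contrast between their medians is therefore built in. What the numbers stand for is not given, so the fit reported did not pair the samples and the replicate block was run as an alternative. The tests with count models, DESeq2 and edgeR, were not run, since the deposited values are FPKM. Slc2a3 and Ldhb reached 1 FPKM in 0 libraries, so the filter kept them out of the fit reported.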
